A study of Mus musculus with 16 samples.

Results

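Core autophagy machinery and selective cargo receptors were examined in small intestinal organoids that carried or lacked Atg16l1 and were or were not exposed to interleukin 22 (IL-22). The set was a fixed list of 42 genes out of 49585 in the deposited table. It was chosen by name and function, with earlier results of these data known. By role it held 5 genes of the ULK1 complex, 7 of the class III PI3K complex, 7 lipid transfer proteins and phosphatidylinositol 3-phosphate effectors, 7 genes of the ATG12 and ATG16L1 conjugation systems, 9 genes of the ATG8 family and its ATG4 proteases, and 7 cargo receptors and adaptors. All 42 passed the filter on low counts, which kept 12559 genes for testing.

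RNA sequencing covered 16 organoid cultures in 4 groups of 4. Both genotypes carried floxed Atg16l1 alleles on a C57BL/6 background: Atg16l1 fl/fl organoids came from mice without Cre, and Atg16l1ΔIEC organoids from mice with Cre driven by the villin promoter, which is active in intestinal epithelial cells, and cultures of both received either no cytokine or, for 24 h, recombinant murine IL-22 at 10 ng/ml. Each genotype was represented by 2 organoid lines with 2 cultures of each line per treatment, the first line being replicates 1 and 2 and the second replicates 3 and 4. The lines came from different animals in the 2 genotypes, so genotype and line cannot be told apart beyond the spread between 2 lines a side, and p-values over 4 cultures partly measure the spread between cultures of 1 line. The study used mice of 8 to 12 weeks.

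Autophagy encloses cytoplasm in a double membrane that is delivered to the lysosome. The ULK1 kinase complex starts the process, the class III PI3K complex marks the membrane with phosphatidylinositol 3-phosphate, ATG9A vesicles and ATG2 lipid channels supply membrane, and the ATG12–ATG5–ATG16L1 complex attaches ATG8 proteins (the LC3 and GABARAP families) to phosphatidylethanolamine on it. Cargo receptors such as p62 bind both ubiquitinated cargo and ATG8 proteins. In the intestinal epithelium the pathway is known for its part in Paneth cell granule secretion and in the handling of intracellular bacteria, and ATG16L1 is a risk gene for Crohn's disease in people.

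Values are counts per 1000000 (CPM) on scaled library sizes, given as mean ± SD over 4 cultures, and changes are log2 fold changes ± SE from edgeR's quasi-likelihood test, called at a Benjamini-Hochberg adjusted p under 0.01 over all tested genes. Libraries held 2135000 to 5574860 counts on genes. Over all cultures the summed level of 8 epithelial markers was 5883 to 10712 CPM, against 11.2 to 19.4 CPM for 7 immune and 1.62 to 6.80 CPM for 7 stromal markers, with the T cell gene Cd3e at 0 throughout. Transcripts were measured, not protein or autophagic flux, and in bulk cultures fewer cells of a type and less RNA per cell cannot be told apart.

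Atg16l1, the deleted gene (ENSMUSG00000026289.15, chromosome 1 from 87755870 to 87792428 on the plus strand of GRCm38), checked the labels. Untreated fl/fl cultures had 38.9, 31.6, 41.3 and 49.2 CPM and IL-22–treated fl/fl cultures had 39.2, 40.0, 51.8 and 48.8 CPM. Untreated ΔIEC cultures had 2.59, 2.71, 1.21 and 4.15 CPM, which were 11, 11, 3 and 10 counts. IL-22–treated ΔIEC cultures had 0.810, 5.96, 0.302 and 0.289 CPM, or 2, 21, 1 and 1 counts. All 8 ΔIEC cultures lay below all 8 fl/fl cultures, so no library went against its label, and the 21 counts of replicate 2 stood apart in its group. The difference was -3.90 ± 0.37 on the log2 scale untreated (adjusted p = 1.27e-06 by edgeR) and -4.51 ± 0.38 with IL-22 (adjusted p = 2.25e-07). IL-22 did not pass the test for Atg16l1 in fl/fl organoids (log2 fold change 0.17 ± 0.24, adjusted p = 0.632).

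Of the 2 partners that form a complex with ATG16L1, Atg5 did not pass the test and Atg12 was lower in IL-22–treated ΔIEC cultures. Atg5, the E3-like partner that is joined to ATG12, had 53.2, 55.1, 43.1 and 44.4 CPM in untreated fl/fl and 61.3, 57.6, 51.5 and 48.2 CPM in untreated ΔIEC cultures. With IL-22 it had 45.1, 48.6, 46.0 and 36.9 CPM in fl/fl and 62.8, 60.5, 45.6 and 49.5 CPM in ΔIEC cultures, and no comparison of Atg5 passed the test (smallest adjusted p = 0.0671, genotype with IL-22). Atg12, the ubiquitin-like protein of the complex, lay at lower values in ΔIEC in both treatments, and untreated cultures had 60.8, 61.5, 59.8 and 55.9 CPM in fl/fl and 48.3, 50.7, 51.9 and 44.4 CPM in ΔIEC. IL-22–treated cultures had 58.6, 57.7, 51.2 and 52.7 CPM in fl/fl and 43.3, 46.9, 41.7 and 42.2 CPM in ΔIEC, and neither pair of groups overlapped. The test passed with IL-22 (log2 fold change -0.33 ± 0.08, adjusted p = 0.00429) and not in untreated cultures (log2 fold change -0.28 ± 0.08, adjusted p = 0.019). When 1 culture or line was left out at a time, which gave 20 refits, the Atg12 call was lost without IL-22 fl/fl replicate 1 or 2, IL-22 ΔIEC replicate 3 or 4, the first ΔIEC line, the second ΔIEC line or the first fl/fl line (adjusted p = 0.0125 to 0.0512).

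Atg16l2, the paralog of Atg16l1, had the lowest level per length of the 42 genes in fl/fl cultures and did not pass the test for genotype (adjusted p = 0.909 untreated and 0.428 with IL-22). It fell with IL-22 in fl/fl organoids, from 7.01, 7.66, 6.80 and 8.56 CPM to 1.19, 3.04, 5.63 and 3.90 CPM (log2 fold change -1.02 ± 0.27, adjusted p = 0.00656). In ΔIEC organoids it went from 7.31, 8.86, 8.85 and 6.23 CPM to 4.46, 4.26, 5.14 and 4.63 CPM, also without overlap, and did not pass the test (log2 fold change -0.76 ± 0.27, adjusted p = 0.0418). The treated fl/fl cultures held only 3, 13, 30 and 13 counts. The fl/fl change was -1.64 in the first line and -0.64 in the second. It lost its call without untreated fl/fl replicate 1, 2, 3 or 4, IL-22 fl/fl replicate 1, 2 or 4, the first ΔIEC line, the second ΔIEC line or the first fl/fl line (adjusted p = 0.0103 to 0.14).

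**Figure D1:**
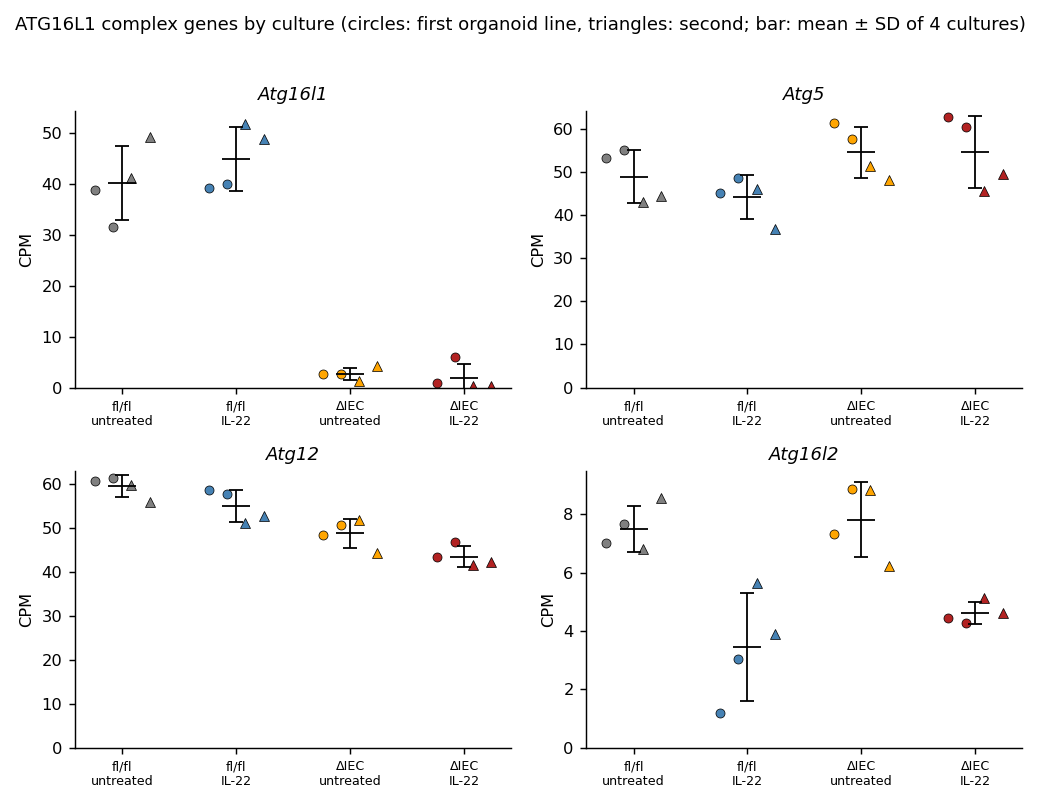
CPM (y axis) of Atg16l1, Atg5, Atg12 and Atg16l2 in each of the 16 cultures by group (x axis), with circles for the first and triangles for the second organoid line and bars for mean ± SD of 4 cultures. Atg16l1 drops to at most 5.96 CPM in the 8 ΔIEC cultures, Atg5 overlaps between genotypes, Atg12 lies lower in ΔIEC, and Atg16l2 lies lower with IL-22 in both genotypes.

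The enzymes of the conjugation systems (Atg3, Atg7 and Atg10) did not pass the test in any comparison. Atg7, the E1-like enzyme, ranged from 30.5 to 34.0 CPM in group means, and Atg3, the E2-like enzyme for ATG8 proteins, from 44.5 to 52.7 CPM. Atg10, the E2-like enzyme that joins ATG12 to ATG5, was at 6.72, 8.17, 8.61 and 7.76 CPM in untreated and 4.75, 5.84, 3.57 and 4.19 CPM in fl/fl cultures given IL-22, without overlap, and missed the threshold (log2 fold change -0.77 ± 0.22, adjusted p = 0.0106). With the organoid line as a block, which compares treated and untreated cultures within a line, Atg10 was called in fl/fl (log2 fold change -0.76, adjusted p = 0.0085).

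IL-22 changed 9 of the 42 genes in at least 1 genotype. In fl/fl organoids 8 passed the test (19.0%; over all tested genes percent called was 20.8), 5 upward (11.9%, background 10.6) and 3 downward (7.14%, background 10.2). In ΔIEC organoids 5 passed (11.9%; background 17.5), 4 upward (9.52%, background 9.83) and 1 downward (2.38%, background 7.65). Both shares were near or below the background. Sqstm1, Tax1bp1 and Atg2a rose and Ulk1 fell in both genotypes. Map1lc3b and Atg4d rose and Atg16l2 and Calcoco1 fell past the threshold in fl/fl, Gabarapl1 rose past it in ΔIEC, and each of the 9 had the same sign in the other genotype. The median log2 fold change of the 42 genes was 0.08 in fl/fl (all genes -0.05) and 0.10 in ΔIEC (all genes -0.01). The treated and untreated cultures did not overlap for 10 genes in fl/fl (23.8%, background 30.9), 5 above and 5 below (background 15.4 each way), and for 14 in ΔIEC (33.3%, background 27.3), 11 above and 3 below (background 14.1 and 13.2).

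**Figure D2:**
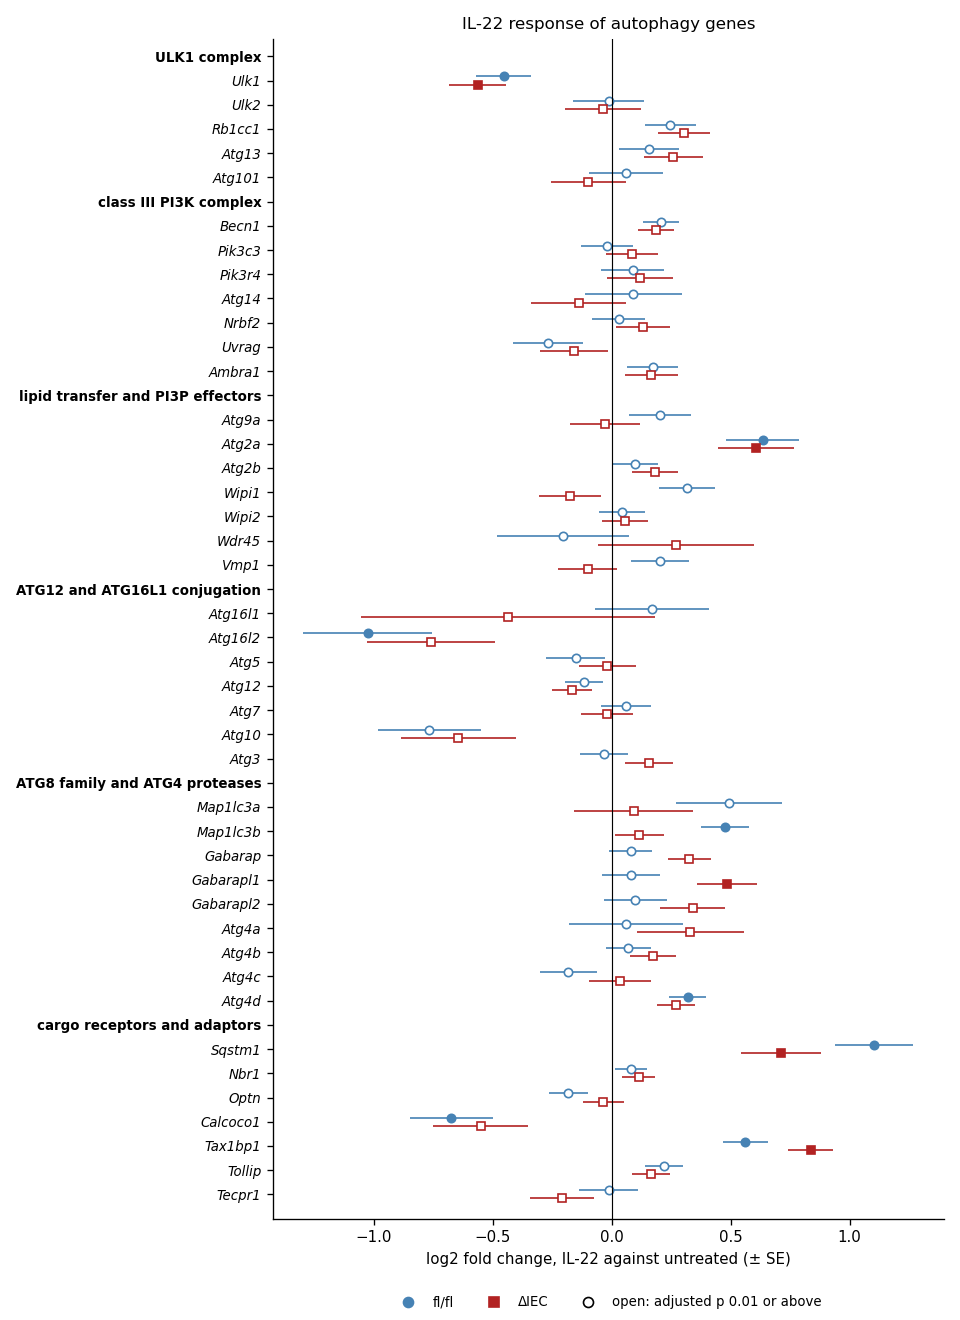
Log2 fold change with IL-22 ± SE (x axis) for each of the 42 genes by role (y axis), blue circles for fl/fl and red squares for ΔIEC, filled where adjusted p was under 0.01. Most genes sit near 0, with Sqstm1, Tax1bp1 and Atg2a to the right and Ulk1 to the left in both genotypes.

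Sequences upstream of the start were read from RefSeq promoter entries on GRCm38.p6, which matched 36 of the 42 genes. They are shown for the 4 genes called for IL-22 in both genotypes, 5′ to 3′ on the strand of the gene. Each was cut to the longest stretch within 250 bases of the start that no annotated exon covers. Sqstm1 is at chr11:50210828-50210889 on the minus strand, Tax1bp1 (the second of its 2 listed starts) at chr6:52713956-52714164 and Atg2a at chr19:6241418-6241667 on the plus strand, and Ulk1 at chr5:110810098-110810331 on the minus strand. Capitals mark the only match among them to the 3 motifs that were searched.
Sqstm1: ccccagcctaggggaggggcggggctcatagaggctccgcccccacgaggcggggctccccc
Tax1bp1: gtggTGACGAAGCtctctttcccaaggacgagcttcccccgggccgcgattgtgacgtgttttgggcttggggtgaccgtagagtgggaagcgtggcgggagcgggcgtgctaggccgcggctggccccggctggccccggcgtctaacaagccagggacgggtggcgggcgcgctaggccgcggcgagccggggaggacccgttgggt
Atg2a: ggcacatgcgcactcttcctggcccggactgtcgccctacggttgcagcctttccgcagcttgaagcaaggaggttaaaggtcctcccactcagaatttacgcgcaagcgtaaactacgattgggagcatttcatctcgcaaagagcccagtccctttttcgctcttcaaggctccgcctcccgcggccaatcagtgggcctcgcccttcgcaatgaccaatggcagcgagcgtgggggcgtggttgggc
Ulk1: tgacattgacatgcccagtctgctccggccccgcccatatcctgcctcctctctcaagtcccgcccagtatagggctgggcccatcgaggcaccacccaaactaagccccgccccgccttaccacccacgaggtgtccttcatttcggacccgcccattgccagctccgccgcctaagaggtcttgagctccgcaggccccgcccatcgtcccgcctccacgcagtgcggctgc
G and C made up 79.0% of the Sqstm1, 71.3% of the Tax1bp1, 59.6% of the Atg2a and 66.2% of the Ulk1 stretch. The motifs were searched on both strands from 250 bases before to 50 after the start, as letters in which N is any base. TTCNNNGAA, the half-site pair that STAT factors bind, was found for 4 of 36 genes (11.1%, against 9.55% of all genes in the table). CACGTG, the E-box core of elements bound by TFEB, was found for 5 (13.9%, against 8.09%), and TGACNNNGC, the core of the antioxidant response element, for 6 (16.7%, against 14.0%). The capitals in Tax1bp1 match TGACNNNGC 205 bases before the start. The 4 genes with TTCNNNGAA were Gabarap, Gabarapl1, Nbr1 and Wipi1, of which Gabarapl1 was called for IL-22 in ΔIEC. Windows of 30 bases around the match are shown for Gabarapl1, at chr6:129532968-129532997 on the plus strand, and for Wipi1, which differed by genotype with IL-22, at chr11:109611528-109611557 on the minus strand, with the match in capitals.
Gabarapl1: tgttagagcaTTCTTTGAAttaacaaatta
Wipi1: acccagccgaTTCTCTGAAggaggggcggg
A match is a string of letters and not a bound site. None of the 4 genes called for IL-22 in both genotypes held TTCNNNGAA in the bases searched. Unlike the stretches above, the windows of 30 bases were not cut to bases outside exons. All 250 upstream bases of Gabarapl1 lie in an exon of 1700101I11Rik on the opposite strand.

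Among the cargo receptors, Sqstm1 and Tax1bp1 rose in both genotypes. Sqstm1 encodes p62, which carries ubiquitinated proteins to the autophagosome and is itself degraded there. In fl/fl cultures Sqstm1 was at 185, 192, 154 and 143 CPM untreated and 364, 386, 324 and 376 CPM with IL-22, a 2.15-fold rise, and the treated cultures all lay above the untreated ones (log2 fold change 1.10 ± 0.17, adjusted p = 4.22e-05). In ΔIEC cultures it was at 135, 152, 185 and 191 CPM untreated and 203, 197, 368 and 311 CPM with IL-22, a 1.64-fold rise, again without overlap (log2 fold change 0.71 ± 0.17, adjusted p = 0.00298). The treated ΔIEC cultures of the second line were higher than those of the first, and the rise was 0.48 in the first and 0.84 in the second line. The ΔIEC call was lost without untreated ΔIEC replicate 1 or 2, IL-22 ΔIEC replicate 3 or 4 or the second ΔIEC line (adjusted p = 0.0133 to 0.0398), and without the second line the rise was log2 fold change 0.44, adjusted p = 0.0398. The fl/fl rise kept its call in every refit that left out 1 culture or line.

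Tax1bp1, a receptor for ubiquitinated protein aggregates and bacteria, was at 371, 338, 298 and 274 CPM in untreated and 516, 517, 422 and 437 CPM in fl/fl cultures given IL-22 (1.47-fold, log2 fold change 0.56 ± 0.09, adjusted p = 1.39e-04). In ΔIEC cultures it was at 309, 329, 308 and 312 CPM untreated and 623, 544, 514 and 567 CPM after IL-22 (1.79-fold, log2 fold change 0.84 ± 0.09, adjusted p = 1.53e-06). Its upstream stretch was the only one of the 4 printed with a motif match, to TGACNNNGC, which 14.0% of all genes in the promoter table held. The printed stretches differed in length, and any part of the match in the rise was not tested. The groups did not overlap in either genotype, and both calls held in every refit that left out 1 culture or line. Untreated cultures of the 2 genotypes overlapped. With IL-22 the ΔIEC mean was higher and did not pass the test (log2 fold change 0.25 ± 0.09, adjusted p = 0.0468).

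Calcoco1, which is related to the receptor NDP52 and takes part in turnover of the endoplasmic reticulum, went the other way. It was at 17.2, 19.7, 12.2 and 19.5 CPM in untreated and 9.90, 10.8, 12.4 and 10.2 CPM in treated fl/fl cultures, with overlap through 1 untreated culture (log2 fold change -0.67 ± 0.18, adjusted p = 0.00582). In ΔIEC it went from 9.90, 13.0, 12.9 and 9.97 to 5.67, 7.39, 9.97 and 7.81 CPM, with overlap, and did not pass (log2 fold change -0.55 ± 0.20, adjusted p = 0.0454). The fl/fl call was lost without untreated fl/fl replicate 1, 2 or 4, IL-22 fl/fl replicate 1, 2 or 4, the first fl/fl line or the second fl/fl line (adjusted p = 0.0116 to 0.195), and DESeq2 did not make it. The other genes listed as cargo receptors and adaptors were Nbr1, Optn, Tollip and Tecpr1. Their IL-22 changes lay between -0.18 and 0.22 in fl/fl and between -0.21 and 0.16 in ΔIEC on the log2 scale, and none passed. Exons of Sqstm1 shared 580 bases with Mrnip, those of Optn 73 with 4930551O13Rik and those of Tax1bp1 160 with Gm43966. These overlaps were on the opposite strand, and the strand setting of the counting is not given in the sources used here.

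Ulk1, the kinase that starts autophagosome formation, fell in both genotypes. It was at 34.2, 32.2, 35.8 and 37.5 CPM in untreated and 23.4, 23.4, 25.3 and 29.7 CPM in treated fl/fl cultures (log2 fold change -0.45 ± 0.12, adjusted p = 0.0049). In ΔIEC cultures it was at 30.7, 33.2, 36.2 and 35.7 CPM untreated and 17.8, 25.0, 24.2 and 23.4 CPM after IL-22 (log2 fold change -0.56 ± 0.12, adjusted p = 0.00127). All treated cultures lay below all untreated ones in both genotypes. The change was -0.49 and -0.41 in the fl/fl lines and -0.58 and -0.58 in the ΔIEC lines. The fl/fl call was lost without untreated fl/fl replicate 3 or 4, IL-22 fl/fl replicate 1, 2 or 3, the second ΔIEC line, the first fl/fl line or the second fl/fl line (adjusted p = 0.0123 to 0.088), and DESeq2 did not make it. The ΔIEC call was lost without the first ΔIEC line or the second ΔIEC line (adjusted p = 0.0142 to 0.0398). The other members of the complex, the kinase Ulk2, the scaffold Rb1cc1 (FIP200) and the regulatory subunits Atg13 and Atg101, did not pass: Rb1cc1 had the largest change, log2 fold change 0.25 ± 0.11, adjusted p = 0.0875 in fl/fl and log2 fold change 0.30 ± 0.11, adjusted p = 0.0468 in ΔIEC.

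None of the 7 genes of the class III PI3K complex passed edgeR's test for IL-22 in either genotype, where 1 of 7 (Becn1 in both) had an unadjusted p under 0.05, and DESeq2 called none. Their changes ran from -0.27 (Uvrag) to 0.21 (Becn1) in fl/fl and from -0.16 (Uvrag) to 0.19 (Becn1) in ΔIEC. Becn1, the regulatory subunit Beclin 1, went from 123 ± 8.91 to 141 ± 10.3 CPM in fl/fl (adjusted p = 0.0379) and from 109 ± 4.02 to 124 ± 5.47 CPM in ΔIEC (adjusted p = 0.0736). The catalytic lipid kinase Pik3c3 (VPS34) was at 33.5 to 37.6 CPM in group means and its scaffold Pik3r4 at 27.3 to 32.0 CPM. The regulatory subunit Nrbf2 and the Beclin 1 partner Ambra1 were at 26.9 ± 2.98 and 44.0 ± 6.12 CPM in untreated fl/fl cultures. Exons of Becn1 share 3104 bases with Cntd1 and those of Uvrag 1589 bases with Gm45187 on the opposite strand. Atg14, which directs the complex to autophagosome formation, was among the lowest of the set at 7.01 to 9.18 CPM.

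Atg2a, a lipid channel that feeds the growing membrane, rose in both genotypes. It was at 43.5, 31.9, 24.9 and 30.2 CPM in untreated and 45.1, 56.3, 48.1 and 54.8 CPM in treated fl/fl cultures, just without overlap (1.55-fold, log2 fold change 0.63 ± 0.15, adjusted p = 0.00364). In ΔIEC cultures it went from 29.5, 34.0, 24.9 and 29.1 to 32.8, 43.2, 55.6 and 47.7 CPM, with 1 treated culture below 1 untreated one (1.52-fold, log2 fold change 0.61 ± 0.16, adjusted p = 0.00727). The rise was larger in the second line of each genotype (0.89 against 0.43 in fl/fl and 0.92 against 0.25 in ΔIEC), and without the second ΔIEC line the ΔIEC change was log2 fold change 0.24, adjusted p = 0.522. For Atg2a the fl/fl call was lost without untreated fl/fl replicate 2, 3 or 4, IL-22 fl/fl replicate 2 or 4 or the second fl/fl line (adjusted p = 0.0115 to 0.144). Its ΔIEC call was lost without untreated ΔIEC replicate 1, 3 or 4, IL-22 ΔIEC replicate 2, 3 or 4 or the second ΔIEC line (adjusted p = 0.0114 to 0.522). Its paralog Atg2b did not pass in any comparison, at 67.4 to 77.1 CPM in group means. For the other effectors (Atg9a, Wipi1, Wipi2, Wdr45 and Vmp1) the IL-22 changes did not pass and ran from -0.20 to 0.32 in fl/fl and from -0.18 to 0.27 in ΔIEC.

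In the ATG8 family, Map1lc3b passed the test in fl/fl and Gabarapl1 in ΔIEC. Map1lc3b, which encodes the common autophagosome marker LC3B, was at 71.3, 64.6, 51.2 and 60.2 CPM in untreated and 95.0, 87.6, 86.9 and 77.0 CPM in treated fl/fl cultures, without overlap (1.39-fold, log2 fold change 0.48 ± 0.10, adjusted p = 0.00113). In ΔIEC it was at 58.5, 64.2, 74.8 and 69.4 CPM untreated and 70.5, 68.5, 78.3 and 70.0 CPM with IL-22, with overlap (log2 fold change 0.12 ± 0.10, adjusted p = 0.445). This call was lost without the second fl/fl line (adjusted p = 0.024). Gabarapl1, a GABARAP subfamily member, was at 43.5, 41.1, 36.3 and 31.0 CPM in untreated and 46.3, 37.9, 38.1 and 39.9 CPM in treated fl/fl cultures, which overlapped (log2 fold change 0.08 ± 0.12, adjusted p = 0.651). In ΔIEC it rose from 28.8, 29.3, 31.4 and 27.4 to 33.6, 40.3, 39.6 and 48.9 CPM, without overlap (1.40-fold, log2 fold change 0.48 ± 0.13, adjusted p = 0.00635). That call was lost without untreated ΔIEC replicate 1, 2 or 4, IL-22 ΔIEC replicate 2, 3 or 4, the first ΔIEC line or the second ΔIEC line (adjusted p = 0.0112 to 0.245). Exons of Gabarapl1 share 570 bases with 1700101I11Rik on the opposite strand.

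Gabarap, the most abundant ATG8 transcript, was at 141, 145, 152 and 149.9 CPM in untreated and 195, 172, 176 and 193 CPM in treated ΔIEC cultures, without overlap, and missed the threshold (log2 fold change 0.33 ± 0.09, adjusted p = 0.0108). With the organoid line as a block it was called (log2 fold change 0.32, adjusted p = 3.77e-04), as it was by DESeq2. In fl/fl it went from 187 ± 21.3 to 198 ± 23.0 CPM (adjusted p = 0.541). Gabarapl2 went from 52.3 ± 4.99 to 66.0 ± 2.12 CPM in ΔIEC (adjusted p = 0.0668) and Map1lc3a from 13.6 ± 3.77 to 19.4 ± 1.57 CPM in fl/fl (adjusted p = 0.0988). All 9 genes of the ATG8 and ATG4 group had a positive IL-22 change in ΔIEC, from 0.03 to 0.48 with a median of 0.27 (all genes -0.01). In fl/fl 8 of 9 did, with a median of 0.08 (all genes -0.05). Of the 9, 1 was called higher in ΔIEC (11.1%, against 9.83% of all genes) and 2 in fl/fl (22.2%, against 10.6%). The share of all genes with a positive change is not given here.

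Of the ATG4 proteases, which process ATG8 proteins and release them from membranes, Atg4d passed the test. It was at 98.8, 103, 90.2 and 90.4 CPM in untreated and 124, 119, 121 and 114 CPM in treated fl/fl cultures (log2 fold change 0.32 ± 0.08, adjusted p = 0.00382). In ΔIEC it was at 87.2, 74.6, 76.8 and 90.1 CPM untreated and 92.3, 105, 97.0 and 101 CPM after IL-22 (log2 fold change 0.27 ± 0.08, adjusted p = 0.016), a change that was called with the line as a block (log2 fold change 0.27, adjusted p = 0.00627). The treated cultures lay above the untreated ones in both genotypes. The Atg4d call was lost without untreated fl/fl replicate 3 or 4, IL-22 fl/fl replicate 1, 2 or 3, the first fl/fl line or the second fl/fl line (adjusted p = 0.0105 to 0.104). Exons of Atg4d share 1405 bases with Kri1 on the opposite strand. Atg4a, Atg4b and Atg4c did not pass for IL-22.

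**Figure D3:**
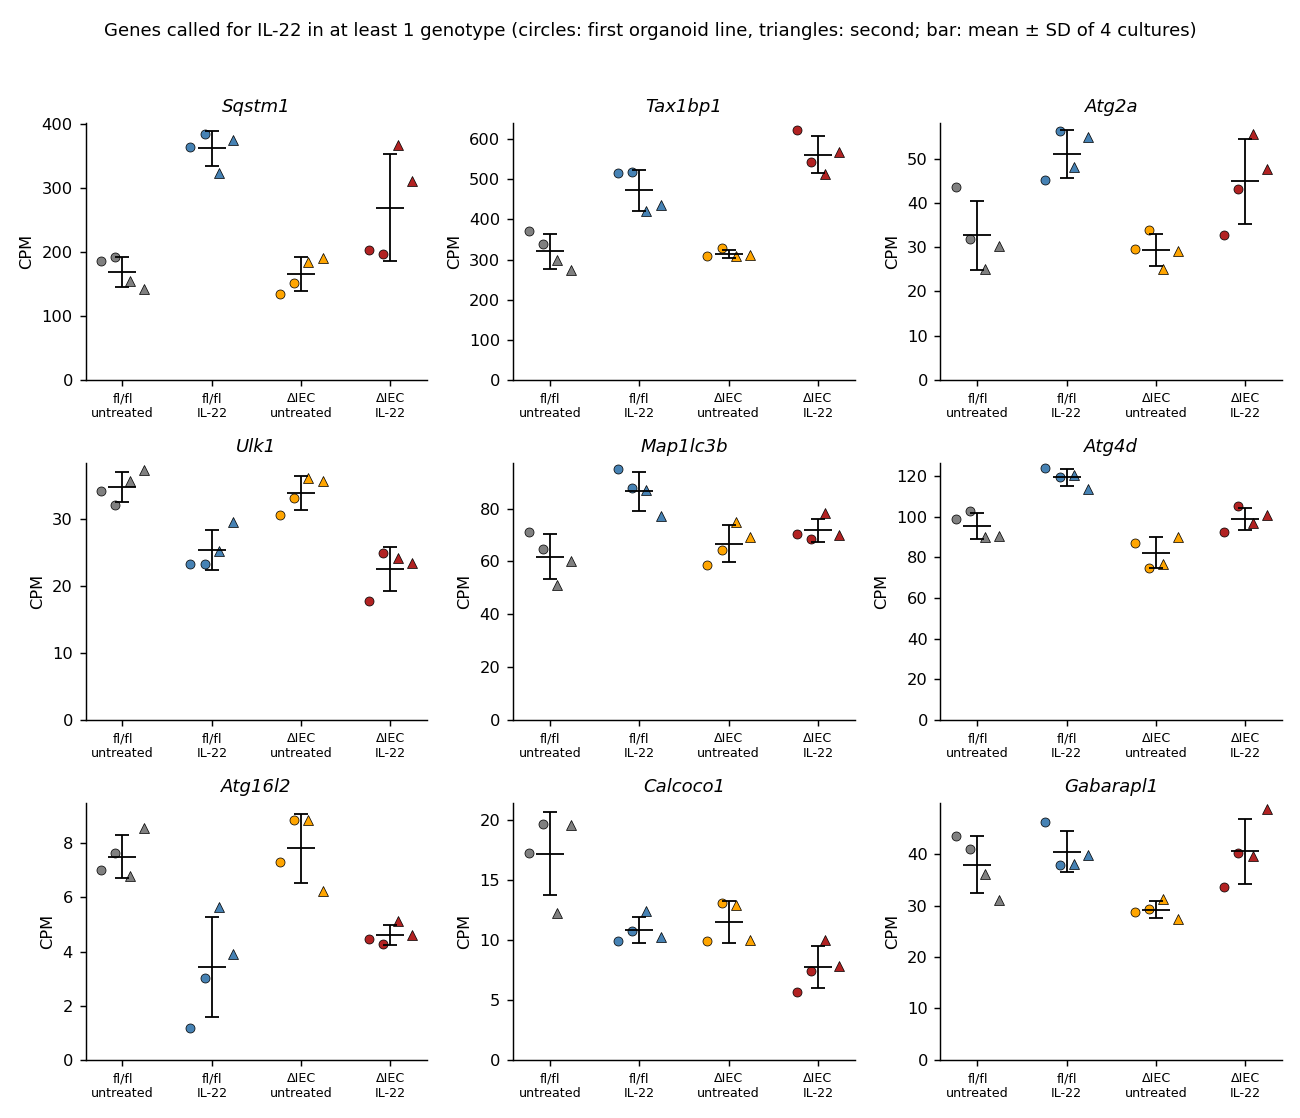
CPM (y axis) in each of the 16 cultures by group (x axis) for the 9 genes called for IL-22 in at least 1 genotype, with circles for the first and triangles for the second organoid line and bars for mean ± SD of 4 cultures. Sqstm1, Tax1bp1 and Atg2a are higher and Ulk1 is lower with IL-22 in both genotypes, and the treated ΔIEC values of Sqstm1 split by line.

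Compared per length, Gabarap stood above the rest of the ATG8 family in every group. Over the exon union it was at 101 ± 11.5 CPM per kilobase (RPKM) in untreated fl/fl cultures, and made up 61.7% ± 1.88 of the summed level of the 5 ATG8 genes. Gabarapl2 was at 24.9 ± 5.57, Gabarapl1 at 18.9 ± 2.75, Map1lc3a at 11.5 ± 3.20 and Map1lc3b at 8.22 ± 1.12 RPKM, where Gabarapl2 and Gabarapl1 differed by about their SDs, as did Map1lc3a and Map1lc3b. The place of Map1lc3b depended on the length used: with the longest coding transcript in place of the exon union it was at 23.5 ± 3.19 RPKM, behind Gabarap and Gabarapl2 alone, a choice added after the data were seen. With that length Gabarapl1 was at 20.9 ± 3.04 RPKM in untreated fl/fl cultures, and its gap to Map1lc3b was within their SDs. Gabarap, with a share of 58.8% to 61.7% over the exon union in the 4 groups, ranked first with either length. Over all 42 genes Gabarap, Sqstm1, Vmp1 and Tax1bp1 were the 4 highest in untreated fl/fl cultures with either length, and Atg16l2, at 0.886 ± 0.0934 RPKM, was the lowest.

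**Figure D4:**
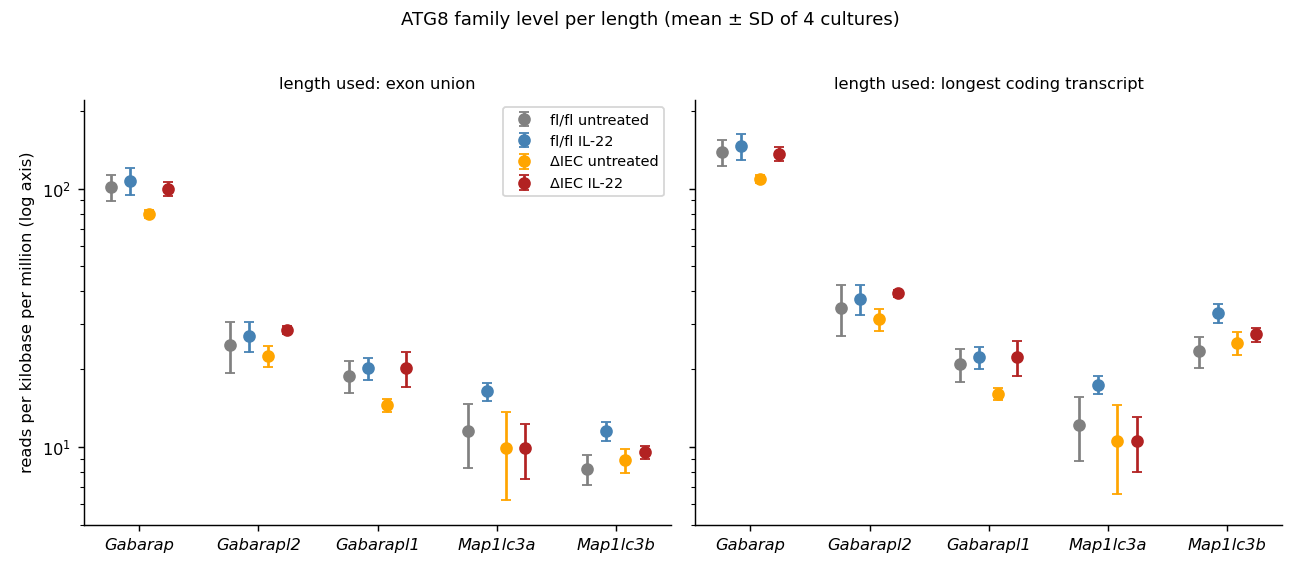
RPKM on a log axis (y axis) of the 5 ATG8 genes (x axis) in the 4 groups, mean ± SD of 4 cultures, over the exon union (left) and the longest coding transcript (right). Gabarap is highest in both panels, and Map1lc3b has the lowest mean in untreated fl/fl cultures on the left. On the right its mean lies above those of Gabarapl1 and Map1lc3a, with the gap to Gabarapl1 within the SDs in untreated fl/fl cultures.

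Whether the IL-22 response differed between genotypes was tested as an interaction (ΔIEC minus fl/fl). None of the 42 genes passed (background 0.0159%). At an unadjusted p under 0.05 there were 3, Wipi1 (log2 difference -0.49 ± 0.17), Map1lc3b (-0.36 ± 0.14) and Gabarapl1 (0.40 ± 0.17), against 7.26% of all genes, and their smallest adjusted p was 0.516 by edgeR. DESeq2 called none, but gave an adjusted p to only 8 of the 42. For Sqstm1 the difference was -0.39 ± 0.23 (adjusted p = 0.779), and with the line as a block it had log2 fold change -0.44, adjusted p = 0.037, and was not called in either fit. A gene called in 1 genotype alone, such as Map1lc3b or Gabarapl1, was therefore not shown to respond differently between them.

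The genotype comparison asked which autophagy genes differ in organoids without Atg16l1. Apart from Atg16l1, 7 genes were lower in ΔIEC in at least 1 treatment. None was called higher by edgeR or DESeq2, while 1 gene untreated and 5 with IL-22 were higher at an unadjusted p under 0.05. In untreated cultures 3 of 42 passed, Atg16l1, Atg4c and Optn (7.14%; background 9.76, lower 5.98 and higher 3.78). With IL-22 6 passed, Atg16l1, Atg9a, Wipi1, Vmp1, Atg12 and Tecpr1 (14.3%; background 19.8, lower 9.84 and higher 9.91). Without Atg16l1, the deleted gene, 2 of 41 were called lower untreated (4.88%, against 5.98% of all genes). With IL-22 5 of 41 were (12.2%, against 9.84%). The median was -0.15 untreated (all genes -0.02) and -0.15 with IL-22 (all genes 0.01), Atg16l1 included. Without regard to the test, the genotypes did not overlap for 13 genes untreated (31.0%, background 23.3) and for 12 with IL-22 (28.6%, background 29.6). All ΔIEC cultures lay below all fl/fl cultures for 12 genes untreated (28.6%, against 12.6% of all genes) and for 11 with IL-22 (26.2%, against 14.2%), and above them for 1 gene in each treatment (2.38%, against 10.6% and 15.4%). Atg16l1, the deleted gene, is counted among the 12 and the 11 genes below. The 2 comparisons use different cultures of the same 2 lines per genotype, so a difference between lines can recur in both. Their agreement is not an independent repeat. Each also shares its cultures with an IL-22 comparison.

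**Figure D5:**
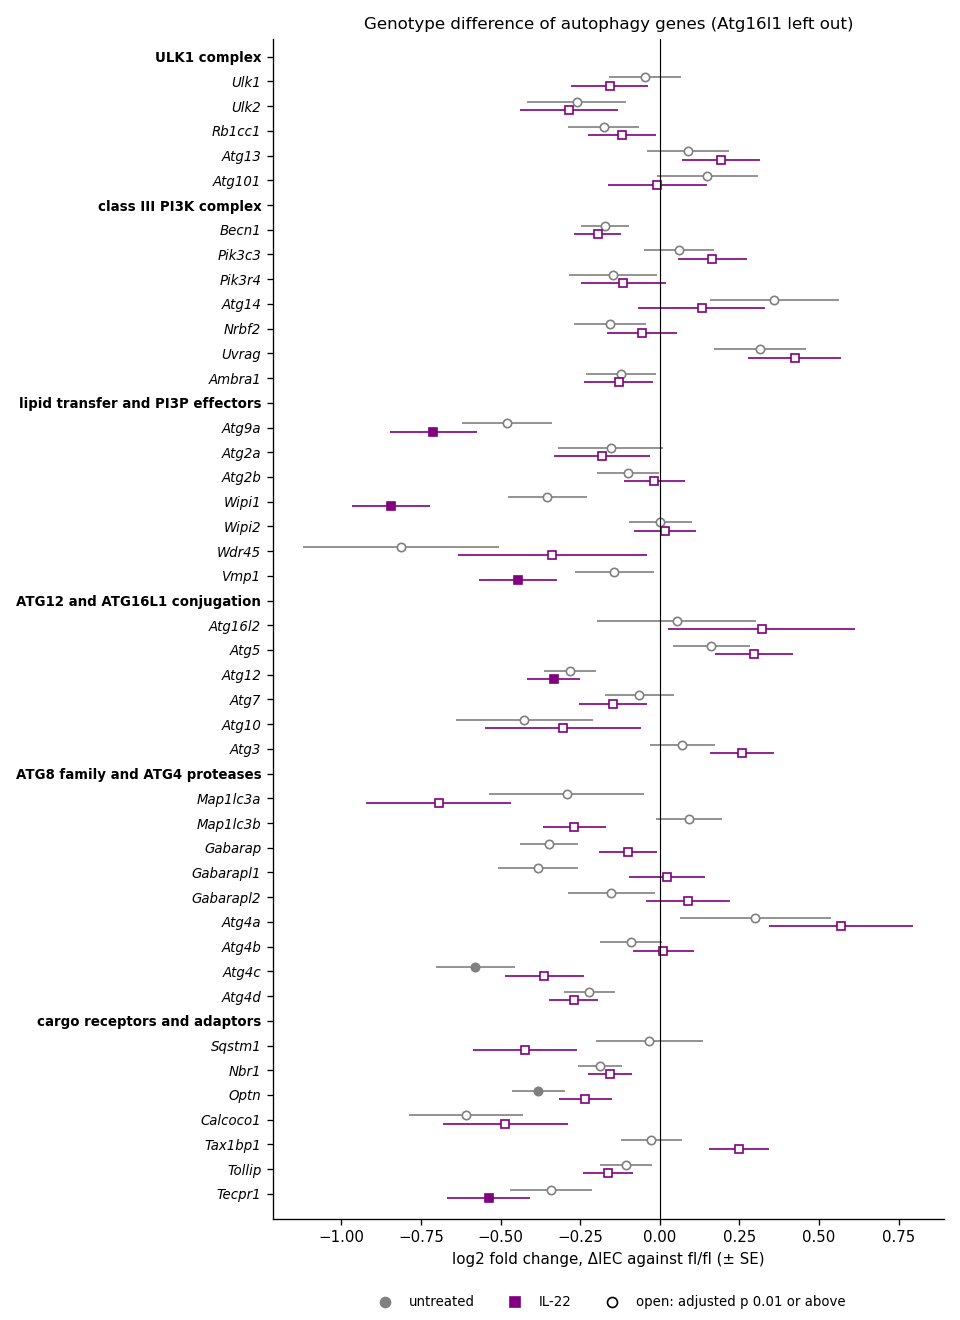
Log2 fold change of ΔIEC against fl/fl ± SE (x axis) for 41 genes by role (y axis), gray circles untreated and purple squares with IL-22, filled where adjusted p was under 0.01; Atg16l1 is left out because its change of -3.90 and -4.51 would set the scale. The filled points, Atg4c and Optn untreated and Atg9a, Wipi1, Vmp1, Atg12 and Tecpr1 with IL-22, all lie left of 0.

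Among the lipid transfer proteins and effectors, Wipi1, Atg9a and Vmp1 were lower in IL-22–treated ΔIEC cultures. Wipi1, which binds phosphatidylinositol 3-phosphate on the forming membrane, was at 38.0, 38.6, 32.7 and 36.9 CPM in treated fl/fl and 20.3, 17.0, 21.2 and 22.6 CPM in treated ΔIEC cultures (1.80-fold lower, log2 fold change -0.84 ± 0.12, adjusted p = 4.59e-05). Untreated, it was at 35.1, 29.3, 27.7 and 24.6 CPM in fl/fl and 23.6, 22.4, 21.3 and 24.1 CPM in ΔIEC cultures (log2 fold change -0.35 ± 0.12, adjusted p = 0.0493). The groups did not overlap in either treatment, and the call with IL-22 held in every refit that left out 1 culture or line.

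Atg9a, the scramblase of the vesicles that seed the membrane, was at 34.1, 39.0, 49.0 and 42.2 CPM in treated fl/fl and 18.6, 26.7, 27.5 and 27.5 CPM in treated ΔIEC cultures, without overlap (1.64-fold lower, log2 fold change -0.71 ± 0.14, adjusted p = 6.39e-04). Untreated, it was at 32.1, 34.2, 43.5 and 35.8 CPM in fl/fl and 25.9, 24.6, 23.3 and 29.9 CPM in ΔIEC cultures, also without overlap (log2 fold change -0.48 ± 0.14, adjusted p = 0.0202). The call was lost without the first ΔIEC line or the second fl/fl line (adjusted p = 0.0155 to 0.0186). Its exons share 1832 bases with Gm29253 on the same strand, so that its counts are uncertain.

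Vmp1, a membrane scramblase of the endoplasmic reticulum, was called by a margin that rested on 1 line. It was at 150.5, 139, 213 and 212 CPM in treated fl/fl cultures, where the second line was higher than the first, and at 154, 115, 134 and 125 CPM in treated ΔIEC cultures, which overlapped with the first fl/fl line (log2 fold change -0.45 ± 0.12, adjusted p = 0.00895). Without the second fl/fl line the difference was log2 fold change -0.14, adjusted p = 0.37. The call was lost without untreated fl/fl replicate 1 or 3, IL-22 fl/fl replicate 3 or 4, untreated ΔIEC replicate 1, 2, 3 or 4, IL-22 ΔIEC replicate 2, 3 or 4, the first ΔIEC line, the second ΔIEC line or the second fl/fl line (adjusted p = 0.0104 to 0.37). Untreated cultures were at 161, 143, 152 and 166 CPM in fl/fl and 141, 142, 129.9 and 151 CPM in ΔIEC and did not pass (log2 fold change -0.14 ± 0.12, adjusted p = 0.444). Exons of Vmp1 share 92 bases with Mir21a on the same strand.

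Tecpr1, which binds the ATG12–ATG5 conjugate and phosphatidylinositol lipids, was at 42.0, 36.0, 38.3 and 39.9 CPM in treated fl/fl and 19.0, 26.1, 35.4 and 25.5 CPM in treated ΔIEC cultures, without overlap (log2 fold change -0.54 ± 0.13, adjusted p = 0.00368). Untreated, it was at 41.5, 38.0, 35.8 and 40.9 CPM in fl/fl and 31.1, 32.5, 28.1 and 31.6 CPM in ΔIEC (log2 fold change -0.34 ± 0.13, adjusted p = 0.0666). The lowest treated ΔIEC culture was replicate 1 and the highest replicate 3, close to the lowest fl/fl culture. The Tecpr1 call was lost without IL-22 fl/fl replicate 1, IL-22 ΔIEC replicate 1, 2 or 4, the first ΔIEC line, the first fl/fl line or the second fl/fl line (adjusted p = 0.0104 to 0.0795).

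Optn, the ubiquitin-binding receptor optineurin, was at 57.9, 57.2, 60.7 and 59.1 CPM in untreated fl/fl and 38.0, 46.5, 47.9 and 49.0 CPM in untreated ΔIEC cultures (log2 fold change -0.38 ± 0.08, adjusted p = 0.00339). With IL-22 it was at 52.7, 50.7, 51.2 and 52.1 CPM in fl/fl and 45.4, 42.9, 43.2 and 44.3 CPM in ΔIEC cultures (log2 fold change -0.23 ± 0.08, adjusted p = 0.0376). The genotypes did not overlap in either treatment, while the test passed in the untreated cultures, and that call was lost without untreated ΔIEC replicate 1, the first ΔIEC line, the second ΔIEC line, the first fl/fl line or the second fl/fl line (adjusted p = 0.0111 to 0.0713). Atg4c, one of the ATG4 proteases, was at 33.9, 26.5, 32.6 and 28.6 CPM in untreated fl/fl and 20.7, 22.9, 19.7 and 16.6 CPM in untreated ΔIEC cultures (1.49-fold lower, log2 fold change -0.58 ± 0.12, adjusted p = 0.00301). With IL-22 it was at 26.1, 24.5, 28.0 and 27.9 CPM in fl/fl and 23.5, 19.6, 22.1 and 18.2 CPM in ΔIEC cultures, again without overlap (log2 fold change -0.36 ± 0.12, adjusted p = 0.0309). The untreated call was lost without untreated fl/fl replicate 1, untreated ΔIEC replicate 1 or 4, the first ΔIEC line, the second ΔIEC line, the first fl/fl line or the second fl/fl line (adjusted p = 0.0101 to 0.05).

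The genes called for IL-22 in both genotypes did not differ by genotype past the threshold: for Sqstm1 the difference was log2 fold change -0.03 ± 0.17, adjusted p = 0.917 untreated and log2 fold change -0.42 ± 0.16, adjusted p = 0.0506 with IL-22, and for Ulk1 it was log2 fold change -0.05 ± 0.11, adjusted p = 0.811 untreated and log2 fold change -0.16 ± 0.12, adjusted p = 0.336 with IL-22. Of the ULK1 complex none passed in either treatment by edgeR or DESeq2 (0 of 5 at an unadjusted p under 0.05 in each), nor did any of the class III PI3K complex (2 of 7 at an unadjusted p under 0.05 in each). Uvrag, a Beclin 1 partner, had the opposite sign to the median of the set. It was at 19.3, 22.2, 17.7 and 17.4 CPM in untreated fl/fl and 24.0, 22.9, 22.5 and 26.6 CPM in untreated ΔIEC cultures, and the ΔIEC cultures lay above the fl/fl ones in both treatments without passing the test (log2 fold change 0.31 ± 0.14, adjusted p = 0.128 untreated and log2 fold change 0.42 ± 0.15, adjusted p = 0.032 with IL-22). Other genes with ΔIEC cultures all below fl/fl cultures in both treatments without passing the test were Atg4d, Becn1 (log2 fold change -0.17 ± 0.08, adjusted p = 0.111 untreated and log2 fold change -0.19 ± 0.07, adjusted p = 0.0493 with IL-22) and Nbr1, a receptor for ubiquitinated proteins (log2 fold change -0.19 ± 0.07, adjusted p = 0.0603 untreated and log2 fold change -0.16 ± 0.07, adjusted p = 0.0868 with IL-22). The phosphatidylinositol 3-phosphate effector Wdr45, at 3.72 ± 0.705 CPM in untreated fl/fl and 2.12 ± 0.547 CPM in untreated ΔIEC cultures, had few counts and a wide error (log2 fold change -0.81 ± 0.31, adjusted p = 0.0679), and 818 of its exon bases are shared with Gm45208 on the same strand. Its relative Wipi2 was at 74.0 ± 4.92 CPM and 74.5 ± 8.70 CPM (log2 fold change 0.00 ± 0.10, adjusted p = 0.993). Gabarap missed the threshold in untreated cultures (log2 fold change -0.35 ± 0.09, adjusted p = 0.011), as Atg4d did with IL-22 (log2 fold change -0.27 ± 0.08, adjusted p = 0.012), and DESeq2 called both.

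Cell type markers moved along with both factors. With IL-22, 6 of 7 enterocyte markers in fl/fl and 4 of 7 in ΔIEC fell, and their summed level ranged over 4816 to 5836 CPM in untreated and 1426 to 1812 CPM in treated fl/fl cultures, and over 4725 to 6339.7 CPM in untreated and 1465 to 2691 CPM in treated ΔIEC cultures. Stem cell markers fell for 2 of 5 in fl/fl and 4 of 5 in ΔIEC. Of all genes, 10.2% fell in fl/fl and 7.65% in ΔIEC. Between genotypes, 3 of 6 Paneth cell markers were lower in untreated and 5 of 6 in IL-22–treated ΔIEC cultures, with a summed level of 3154 to 4135 against 5593 to 7930.0 CPM untreated and 3876 to 4599 against 7012 to 9428 CPM with IL-22. Goblet cell markers were lower for 4 of 6 in each treatment, and 3 of 5 stem cell markers (Ascl2, Olfm4 and Smoc2) were higher in each, while the stem cell marker Lgr5 was lower with IL-22. The enterocyte marker Fabp2 was higher in both treatments and Apoa4 with IL-22. The enteroendocrine marker Chga was lower in both treatments and Chgb with IL-22. Of all genes, 5.98% were lower and 3.78% higher untreated, and 9.84% were lower and 9.91% higher with IL-22. The part of these shifts in the changes of the autophagy genes was not tested.

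With the line as a block, 9 of the 42 genes were called for IL-22 in fl/fl (background 30.6), 7 in ΔIEC (background 25.5) and 0 for the difference (background 0.446). With the cultures of each line summed, so that 2 lines stood against 2, Tax1bp1 in ΔIEC and Atg16l1 with IL-22 passed the test and no other change did (background 3.91 for IL-22 in fl/fl, 4.58 in ΔIEC, 0.0721 for genotype untreated and 1.36 with IL-22), while all 22 called changes kept their sign.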

How the data were processed

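Total RNA of 16 organoid cultures was sequenced, and the counts per gene that the authors deposited are raw read counts made with cutadapt, TopHat2 and HTSeq on mm10 (GRCm38), per the labels and the study's methods. Versions and the strand setting are not given in the sources used here, and the labels and the methods name different TruSeq kits. Lines that name no gene stayed out of library sizes. They were large beside the 2135000 to 5574860 counts on genes per culture, reads of no feature being 38.0% to 40.1% and multi-mapped reads 21.5% to 24.2% of a library. Genes were filtered with filterByExpr, scaled with TMM and tested with edgeR 4.0.16 (quasi-likelihood, 1 fit of 4 group means) in R 4.3.3, with Benjamini-Hochberg adjustment over 12559 genes and a threshold of 0.01. The comparisons were IL-22 in each genotype, their difference, and genotype in each treatment. SE was the log2 fold change over the square root of F. The 42 genes and all lists were chosen with earlier results of these data known. Genes called in at least 1 comparison and the ATG16L1 complex are given per culture and the other members by group means, ranges and counts. Of the further lists, values are given for at most 3 genes per list and comparison, those with the smallest p past the threshold. Alternatives were DESeq2 1.42.0, limma-voom 3.58.1, other scaling, filters and thresholds, the line as a block, summed lines and 1 culture or line left out. Cultures of a line come from 1 animal per the labels. Deviations from the group means were correlated over every pair of an untreated and a treated culture of a line. The values were 0.26 to 0.44 within fl/fl lines and 0.06 to 0.32 within ΔIEC lines. Between cultures of different lines they were -0.43 to -0.22 in fl/fl and -0.35 to -0.08 in ΔIEC. Scripts were tested on simulated counts without an effect of the line, so that test does not cover error rates where cultures share a line. RPKM used the exon union of the annotation.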

Additional observations from a re-analysis of the deposited data

Results flagged for a closer look

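In 7 of 168 sets of 4 cultures (42 genes in 4 groups) the highest or lowest culture stood apart from the other 3 by more than Dixon's 95% critical value allows for its gap over the range. Chance gives about 8.4 of 168. Tax1bp1 was high in untreated ΔIEC replicate 2 (329 CPM), and Atg9a was low in IL-22–treated ΔIEC replicate 1 (18.6 CPM), 2 genes whose calls are described above. Atg13 was high in IL-22–treated ΔIEC replicate 4 (40.8 CPM), and Atg3 was high in untreated ΔIEC replicate 1 (52.1 CPM). Atg4a was low in untreated ΔIEC replicate 3 (4.83 CPM), Gabarapl2 was low in IL-22–treated fl/fl replicate 3 (50.3 CPM), and Atg4b was low in IL-22–treated fl/fl replicate 1 (51.9 CPM).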

How the results depend on the processing

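Refits of the 22 called changes gave 604 alternative values, of which 459 kept their direction and call, 145 kept their direction and lost the call and 0 reversed. Atg16l1 and Atg16l2 could not be tested where a minimum of 10 counts had to be met by each culture. For IL-22 in fl/fl, 8 genes were called, 5 with the compared groups alone, 0 with the cultures of a line summed, and 3 to 8 with 1 culture or line left out. For IL-22 in ΔIEC, 5 were called, 10 at an adjusted p under 0.05 (23.8%, against 27.9% of all genes), 1 with summed lines and 1 to 7 with 1 left out. For genotype in untreated cultures, 3 were called, 9 at 0.05 (21.4%, against 20.4%), 1 with the compared groups alone, 1 by limma-voom, 0 with summed lines and 1 to 4 with 1 left out. For genotype with IL-22, 6 were called, 14 at 0.05 (33.3%, against 33.2%), 3 with the compared groups alone, 3 by limma-voom, 1 with summed lines and 2 to 6 with 1 left out. The difference between genotypes had 0 calls in every setting. Libraries whose loss moved a count by over 1.5 times were, for IL-22 in fl/fl, untreated replicates 3 (4) and 4 (3), IL-22 replicates 1 (4) and 2 (4), untreated replicate 2 (5), IL-22 replicate 4 (5), the first line (4) and the second line (3). For IL-22 in ΔIEC they were untreated replicates 1 (2), 2 (3) and 4 (3), IL-22 replicates 3 (2) and 4 (2), the first line (3) and the second line (1). For genotype untreated they were ΔIEC replicate 1, either ΔIEC line and the first fl/fl line (1 each), and for genotype with IL-22 they were ΔIEC replicate 4 (3), the first ΔIEC line (2) and the second fl/fl line (3). The cause was not tested. With the line as a block, which follows the pairing of treated and untreated cultures, 9 genes were called in fl/fl, 7 in ΔIEC and 0 for the difference, and the block changed no other call than those of Atg10, Gabarap and Atg4d. Summing leaves 2 samples a group, and 1 line a genotype remains when a line is left out.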

Other observations

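Genes that act upstream of the 42, at the lysosome and on organelles were described from 4 further lists. Of 21 upstream kinases and regulators, 5 rose and 1 fell with IL-22 in fl/fl organoids (23.8% and 4.76%, against 10.6% and 10.2% of all genes), and 6 rose and 1 fell in ΔIEC (28.6% and 4.76%, against 9.83% and 7.65%). The gene that fell was Sesn1, the stress-induced inhibitor of mTORC1 signalling sestrin 1, from 126 ± 10.5 to 51.9 ± 4.91 CPM in fl/fl (log2 fold change -1.28 ± 0.14, adjusted p = 1.09e-06) and from 67.4 ± 11.5 to 23.0 ± 7.10 CPM in ΔIEC (log2 fold change -1.59 ± 0.16, adjusted p = 3.47e-07). Prkab1, a regulatory subunit of AMP-activated kinase, rose in both (log2 fold change 0.71 ± 0.08, adjusted p = 1.85e-06 in fl/fl and log2 fold change 0.64 ± 0.08, adjusted p = 5.36e-06 in ΔIEC), as did Tbk1, a kinase of cargo receptors (log2 fold change 0.69 ± 0.11, adjusted p = 5.16e-05 in fl/fl and log2 fold change 0.60 ± 0.10, adjusted p = 2.06e-04 in ΔIEC). In the genotype comparison 0 were higher and 5 lower in each treatment (23.8% lower, against 5.98% of all genes untreated and 9.84% with IL-22). Sesn1 was at 67.4 ± 11.5 against 126 ± 10.5 CPM untreated, ΔIEC against fl/fl (log2 fold change -0.89 ± 0.14, adjusted p = 2.14e-04), and at 23.0 ± 7.10 against 51.9 ± 4.91 CPM with IL-22 (log2 fold change -1.20 ± 0.16, adjusted p = 2.55e-05). Prkaa2, a catalytic subunit of AMP-activated kinase, was lower in both (log2 fold change -0.81 ± 0.11, adjusted p = 6.74e-05 untreated and log2 fold change -0.96 ± 0.11, adjusted p = 3.61e-06 with IL-22), as was the autophagy regulator Trp53inp2 (log2 fold change -0.57 ± 0.10, adjusted p = 6.92e-04 untreated and log2 fold change -0.86 ± 0.10, adjusted p = 6.73e-06 with IL-22).

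Of 14 genes of autophagosome–lysosome fusion, 2 rose and 0 fell with IL-22 in each genotype (14.3%, near the 10.6% of all genes that rose in fl/fl and 9.83% in ΔIEC). Plekhm1, an adaptor between ATG8 proteins and the lysosome, rose with IL-22 from 26.2 ± 2.09 to 54.5 ± 4.58 CPM in fl/fl (log2 fold change 1.05 ± 0.12, adjusted p = 2.17e-06) and from 29.4 ± 1.08 to 50.6 ± 9.77 CPM in ΔIEC (log2 fold change 0.79 ± 0.12, adjusted p = 5.76e-05). Vamp8, a fusion SNARE, rose in both (log2 fold change 0.39 ± 0.11, adjusted p = 0.00999 in fl/fl and log2 fold change 0.46 ± 0.11, adjusted p = 0.00294 in ΔIEC). Between genotypes 0 were higher and 1 lower untreated (7.14% called, against 9.76% of all genes), and 1 was higher and 2 were lower with IL-22 (21.4%, against 19.8%). Subunits of the HOPS tethering complex made up these: Vps11 was lower in ΔIEC in both treatments (log2 fold change -0.56 ± 0.12, adjusted p = 0.00259 untreated and log2 fold change -0.77 ± 0.12, adjusted p = 1.10e-04 with IL-22), while with IL-22 Vps16 was lower (log2 fold change -0.74 ± 0.16, adjusted p = 0.00169) and Vps33a higher (log2 fold change 0.65 ± 0.12, adjusted p = 5.42e-04). Of 16 organelle-specific receptors, 1 rose with IL-22 in fl/fl (6.25%, against 20.8% of all genes called), and 2 rose and 1 fell in ΔIEC (18.8%, against 17.5%). Between genotypes 1 was higher and 2 were lower in untreated ΔIEC cultures (18.8%, against 9.76%), and 1 was higher and 3 were lower with IL-22 (25.0%, against 19.8%). Bnip3, a receptor for mitochondria, rose with IL-22 in both (log2 fold change 0.34 ± 0.09, adjusted p = 0.00557 in fl/fl and log2 fold change 0.57 ± 0.09, adjusted p = 7.12e-05 in ΔIEC) and was lower in ΔIEC in both treatments (log2 fold change -0.61 ± 0.09, adjusted p = 1.36e-04 untreated and log2 fold change -0.38 ± 0.09, adjusted p = 0.00266 with IL-22). Stbd1, a glycogen-binding receptor, was lower in ΔIEC at 4.81 ± 1.91 against 15.2 ± 6.00 CPM untreated (log2 fold change -1.67 ± 0.36, adjusted p = 0.00285) and 5.22 ± 3.30 against 29.6 ± 4.98 CPM with IL-22 (log2 fold change -2.49 ± 0.33, adjusted p = 2.02e-05). In ΔIEC, IL-22 also raised Bnip3l, a mitochondrial receptor (log2 fold change 0.32 ± 0.08, adjusted p = 0.00635), and lowered Phb2, the inner membrane prohibitin (log2 fold change -0.30 ± 0.08, adjusted p = 0.005). Fkbp8, a receptor of the outer mitochondrial membrane, was called higher in ΔIEC in both treatments (untreated log2 fold change 0.29 ± 0.07, adjusted p = 0.00493). Retreg1, a receptor for the endoplasmic reticulum, was called lower in ΔIEC with IL-22 alone (log2 fold change -0.78 ± 0.16, adjusted p = 0.00103). Of 12 further autophagosome factors 0 passed edgeR's test for IL-22, with 3 in fl/fl and 1 in ΔIEC at an unadjusted p under 0.05 (DESeq2 was not read for these lists), and Mtmr14, a phosphoinositide phosphatase, and Irgm1, an immunity-related GTPase, were higher in IL-22–treated ΔIEC cultures (16.7% of the list, against 9.91% of all genes; log2 fold change 0.57 ± 0.13, adjusted p = 0.00258 and log2 fold change 0.80 ± 0.21, adjusted p = 0.00767).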
